A study of Mus musculus with 6 samples.

Results

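ESRRB binding was followed at 10 trophoblast genes (Cdx2, Tead4, Gata3, Elf5, Ascl2, Hand1, Sox21, Satb1, Krt8 and Krt18) in mouse embryonic stem cells. Members were the ESRRB-enriched regions with a summit within 100 kb of the mm10 span of one of these genes. They numbered 17 of 13767 regions for 2iL, 16 of 10970 for 48 h and 5 of 7018 for 96 h, and when overlapping regions were merged they formed 24 of 18634 sites.

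The cells were E14, an embryonic stem cell line derived from the mouse blastocyst, grown on gelatin in N2B27 medium. The 2iL group was kept untreated in N2B27 with the GSK3 inhibitor CHIR99021 at 3 µM, the MEK inhibitor PD0325901 at 1 µM and LIF, a cytokine that supports self-renewal. The 48h and 96h groups were plated at single-cell density in 2iL and were collected 48 h and 96 h after it was replaced by plain N2B27. Each group had 1 ESRRB ChIP-seq library (chromatin fixed with 1% formaldehyde and pulled down with a mouse monoclonal antibody) and 1 input library, which was not used here. All groups came from this 1 cell line, and no group had a replicate, so no test between times was possible and intervals cover counting error only. The peak lists hold no expression values.

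ESRRB is an orphan nuclear receptor that binds DNA at an AGGTCA hexamer extended at its 5′ side. It is part of the naive pluripotency network in embryonic stem cells, and it is also needed in trophoblast stem cells, where mouse embryos without it fail to form a normal placenta. In the blastocyst TEAD4, working with YAP, switches on CDX2, the factor that sets trophectoderm apart from the pluripotent inner cell mass. GATA3 acts beside CDX2. ELF5, ASCL2 and HAND1 act later in trophoblast, and in embryonic stem cells OCT4 keeps Cdx2 low.

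RefSeq promoter windows (GRCm38.p6, the assembly of mm10) overlapped some of these regions, and the windows of 2 long noncoding RNA genes are shown because results below turn on them. The first is shown because it holds the ESRRB summit nearest to Cdx2. It is chr5:147297929-147298228 on the minus strand, the promoter window of Gm35112. The second is chr11:57869271-57869570 on the minus strand, the promoter window of Gm33026, and is shown because it lies in a Hand1 region called at 48 h alone. Both held the hexamer, which was not true of every overlapping window. The windows not shown all overlapped Hand1 regions. Those of Sap30l and of the noncoding gene beside it lacked the hexamer, as did the Gm33078 window at chr11:57911859-57912158. The other Gm33078 windows held it. Capitals mark AGGTCA on either strand, and the 7-letter capitals mark AAGGTCA read on the other strand.
Gm35112 window near Cdx2: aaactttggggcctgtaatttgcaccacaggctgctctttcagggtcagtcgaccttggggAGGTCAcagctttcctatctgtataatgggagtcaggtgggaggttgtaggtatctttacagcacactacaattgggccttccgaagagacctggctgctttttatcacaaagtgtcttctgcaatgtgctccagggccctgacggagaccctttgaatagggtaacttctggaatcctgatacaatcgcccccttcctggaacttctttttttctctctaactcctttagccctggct
Gm33026 window near Hand1: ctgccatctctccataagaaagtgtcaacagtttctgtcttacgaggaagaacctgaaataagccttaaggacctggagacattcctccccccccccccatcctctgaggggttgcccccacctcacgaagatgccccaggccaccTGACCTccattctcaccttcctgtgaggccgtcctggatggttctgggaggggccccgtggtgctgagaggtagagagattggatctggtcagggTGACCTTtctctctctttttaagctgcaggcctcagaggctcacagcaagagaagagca
In the Cdx2 window AGGTCA lay 10 bp from the 2iL summit and 35 bp from the 48 h summit. In the Hand1 window AAGGTCA lay 71 bp from the 48 h summit, which was itself just outside the window.

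AAGGTCA was searched on both strands, and every match also contains AGGTCA. It was in 1550 of 32851 RefSeq promoter windows (4.72%) and in 113 of the 407 windows (27.8%) that held the highest summit of a 2iL region. AGGTCA alone was in 16.3% of all windows and in 45.7% of those with a 2iL summit. Of the 10 genes 8 had promoter windows, 13 in all. None of the 13 held AAGGTCA, with or without TC directly before it (0.423% of all windows held that longer word), and none overlapped an ESRRB region of any library. AGGTCA, a search chosen after seeing the data, was in 3 of them, 1 each at Krt8, Krt18 and Satb1. The keratin matches are shown because these neighbouring genes had the same letters TT directly before the hexamer. AAGGTCA has an A there, so neither match is that longer word. They are chr15:102004553-102004576 on the minus strand and chr15:102028099-102028122 on the plus strand.
Krt8: agacagcttAGGTCAgagatccca
Krt18: cgacctgttAGGTCAcaggaatcc
No ESRRB region was called within 50 kb of either keratin gene.

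Fewer of these genes had an ESRRB region at 96 h than in 2iL or at 48 h. With a 100 kb limit, 9 of the 10 had one in 2iL, 9 at 48 h and 4 at 96 h. Of all 21887 protein-coding genes, 69.8% had a region that near in 2iL, 64.7% at 48 h and 54.0% at 96 h. Cdx2, Hand1, Ascl2 and Tead4 had a region at all 3 times. Sox21, Satb1, Krt8 and Krt18 had one in 2iL and at 48 h, Elf5 in 2iL alone and Gata3 at 48 h alone. Among the 9 genes with a 2iL region, 4 had fewer regions at 48 h than in 2iL, against 55.8% of all protein-coding genes with a 2iL region. At 96 h all 9 had fewer, against 74.4%, and 5 had none, against 27.7%. Krt8 and Krt18 shared their only region in 2iL and their only one at 48 h. A single region, or its absence at 96 h, thus counts for both genes. With each list shortened to its 7018 regions of highest fold, 7 of the 10 genes had a region in 2iL, 6 at 48 h and 4 at 96 h. No share over all protein-coding genes was computed for the shortened lists. These counts therefore cannot show whether the fall is particular to these genes. Absence from a list does not exclude binding under the authors' threshold.

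**Figure D1:**
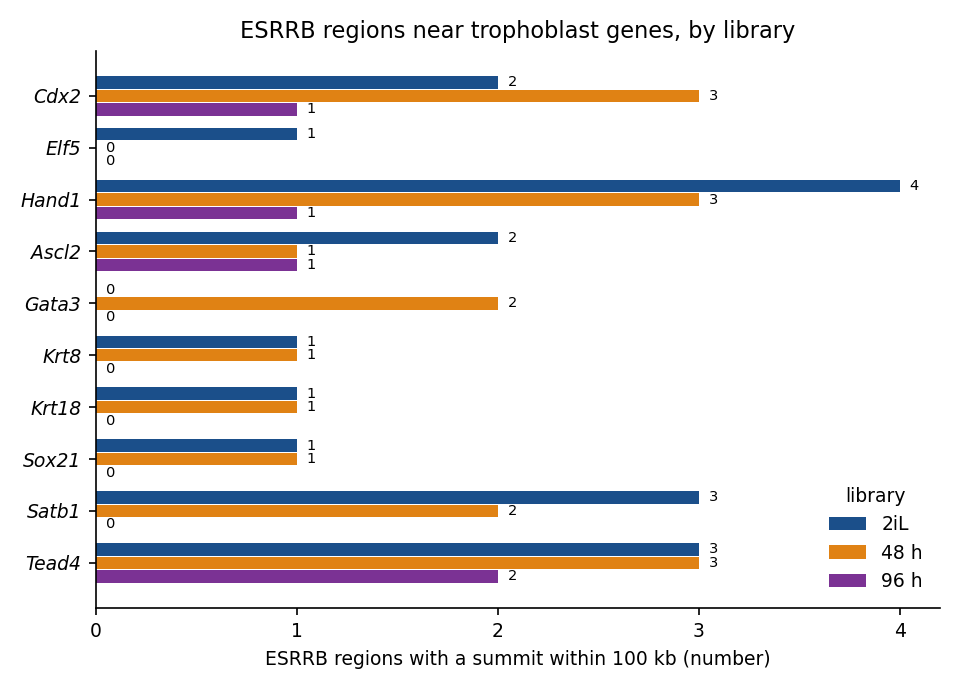
Number of ESRRB regions with a summit within 100 kb of each gene, with 1 bar per library (2iL, 48 h, 96 h from top to bottom). Hand1 had the most in 2iL with 4, Gata3 had 2 at 48 h alone, and only Cdx2, Hand1, Ascl2 and Tead4 had any at 96 h.

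Of the 17 regions of 2iL, 9 were called at 48 h (52.9%, exact Clopper-Pearson 95% interval 27.8 to 77.0) and 5 at 96 h (29.4%, 10.3 to 56.0). Over all 2iL regions the shares were 50.7% and 35.0%, both inside those intervals. The 5 were called at both later times (31.3% of all 2iL regions were), and 8 were called at neither (47.1%, against 45.6% of all 2iL regions). With the same mix of 2iL fold as these genes, all 2iL regions would have given 54.4% at 48 h and 37.9% at 96 h. Read from the later lists, all 5 regions of 96 h were called in 2iL (100%, 47.8 to 100; 69.5% of all 96 h regions were) and at 48 h (100%, 47.8 to 100; 78.3% of all). In both earlier libraries were 62.1% of all 96 h regions. Of the 16 regions of 48 h, 9 were called in 2iL (56.3%, 29.9 to 80.2), against 63.5% of all 48 h regions, and 5 at 96 h (31.3%, 11.0 to 58.7), against 49.3%. The share of 48 h regions called at 96 h was thus below that of the whole list and the shares of 96 h regions above it, but with 16 and 5 regions the intervals cover the whole-list shares.

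**Figure D2:**
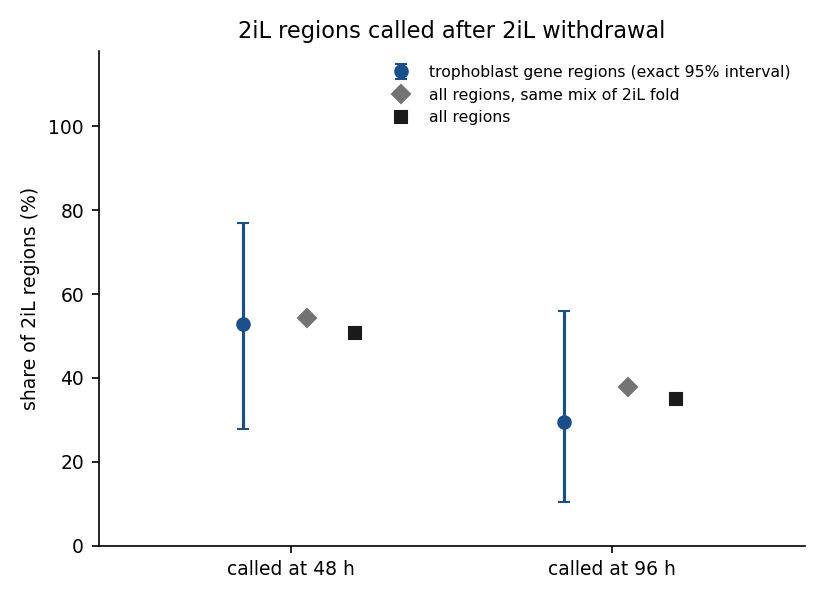
Share of 2iL regions called at 48 h and at 96 h, in percent. Circles are the 17 trophoblast gene regions with exact 95% intervals (52.9% and 29.4%), diamonds are all regions with the same mix of 2iL fold (54.4% and 37.9%) and squares are all regions (50.7% and 35.0%), and both values for all regions lie inside the intervals.

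Strength is given below as the authors' fold enrichment, the reads at the highest summit of a region over the local background of its own list. Whether that background came from the antibody library or its input is not stated. Over all regions the 2iL library had a median fold of 5.88, the 48 h library 4.98 and the 96 h library 4.82. The reads behind each fold followed from the fold and its p-value and were whole numbers, within 0.05 of a step, at 100% of summits. The commonest background was 5.05 reads for the 2iL list, 8.09 for 48 h and 5.84 for 96 h. Library totals were not used here. The background was highest at 48 h, and its part in which regions were called was not tested. Folds of different libraries stand side by side as descriptions only, and their intervals leave out any error in the background. Near the trophoblast genes the median fold was 6.96 in 2iL (2.68 to 13.8, n = 17), 4.77 at 48 h (3.28 to 7.03, n = 16) and 6.82 at 96 h (2.78 to 7.80, n = 5). Above the median of all regions were 10 of the 17 in 2iL, 7 of the 16 at 48 h and 4 of the 5 at 96 h. The authors' −log10 q of these regions ran between 4.58 and 74.2 in 2iL, 8.78 and 61.4 at 48 h and 8.37 and 35.9 at 96 h.

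**Figure D3:**
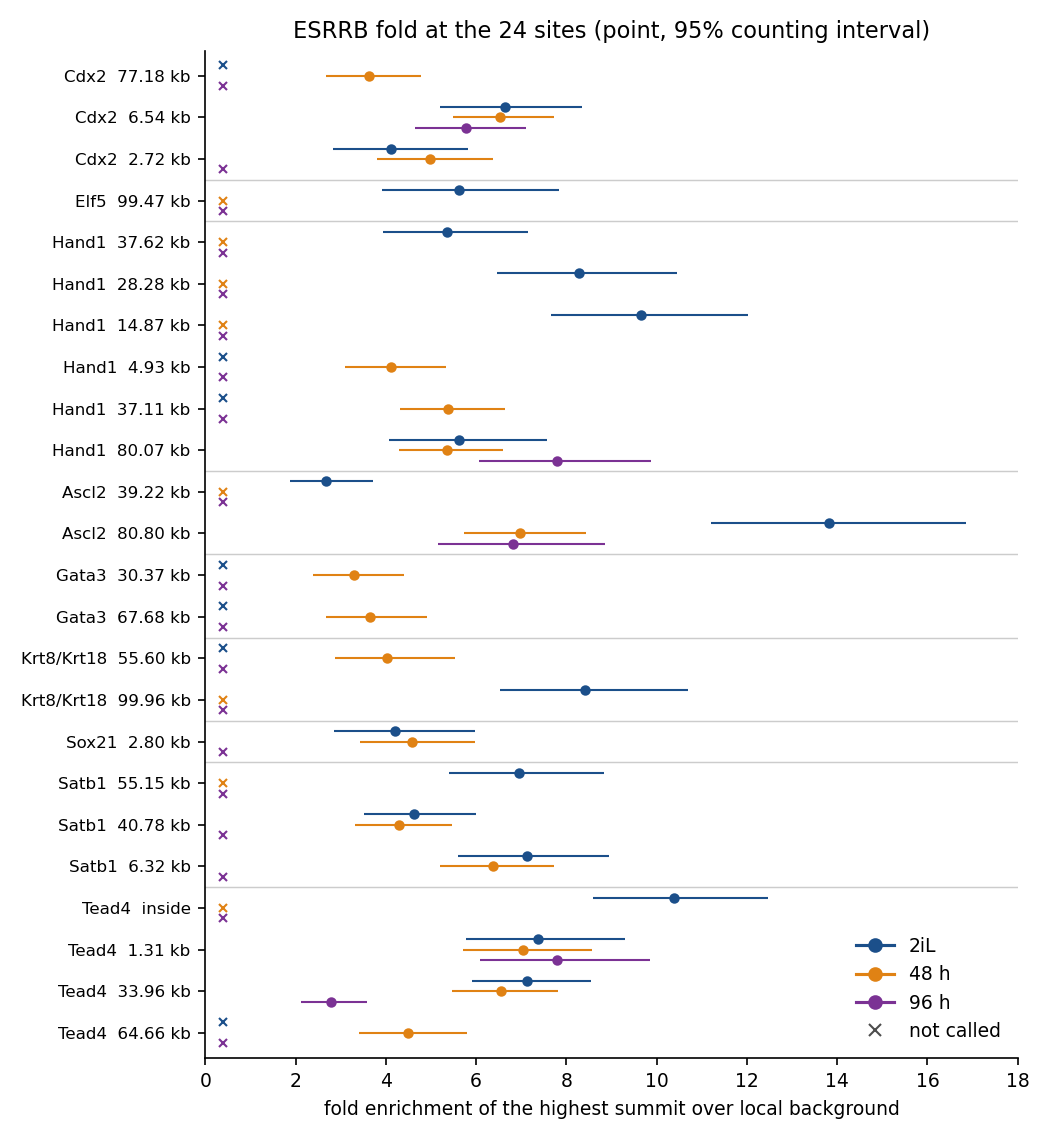
Fold enrichment at each of the 24 sites in 2iL, 48 h and 96 h (from top to bottom within a site), with the distance to the gene in kb. Points are folds with exact Poisson 95% counting intervals and crosses mark libraries in which the site was not called. The Ascl2 site at 80.8 kb has the highest fold, 13.8 in 2iL, and 7 sites have a 48 h point alone.

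Cdx2, the homeobox gene that specifies trophectoderm, had 2 ESRRB regions within 7 kb of its 3′ end and a more distant one. The gene lies on chromosome 5 (147300900 to 147307249, minus strand). The region 6.5 kb downstream (147293903 to 147294840 in 2iL) was called in all 3 libraries, with folds of 6.63 in 2iL (95% counting interval 5.20 to 8.34, 71 reads), 6.53 at 48 h (5.49 to 7.72, 136 reads) and 5.78 at 96 h (4.65 to 7.10, 89 reads). These 3 intervals overlap, and the 3 summits fell within 35 bp of each other, inside the noncoding gene Gm35112. The region at the Gm35112 promoter printed above, 2.7 kb from Cdx2, had a fold of 4.12 in 2iL (2.82 to 5.82, 30 reads) and 4.97 at 48 h (3.81 to 6.38, 60 reads). It was not called at 96 h. The distant region, 77.2 kb downstream (147223072 to 147224025), was called at 48 h alone with a fold of 3.62 (2.68 to 4.79), and its nearest coding gene was Gsx1, at 32.8 kb.

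Tead4, whose product brings YAP to trophectoderm genes, had 2 regions called in all 3 libraries, more than any other of the 10 genes. It lies on chromosome 6 (128227143 to 128300813). The region 1.3 kb beyond its high-coordinate end (128301656 to 128302877 in 2iL) had folds of 7.38 in 2iL (5.77 to 9.29), 7.03 at 48 h (5.72 to 8.57) and 7.80 at 96 h (6.08 to 9.85), with summits within 24 bp. The 3 values do not separate beyond counting error. A region 34.0 kb away, inside the neighbouring gene Tulp3 (128334195 to 128335310), had folds of 7.13 in 2iL (5.90 to 8.54, 116 reads), 6.56 at 48 h (5.46 to 7.81, 123 reads) and 2.78 at 96 h (2.12 to 3.59, 57 reads). The 96 h interval lies below those of the other libraries, while the local background there was 15.4 reads for 2iL, 17.9 for 48 h and 19.9 for 96 h.

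The strongest Tead4 region was the only member inside a trophoblast gene. It spanned 2655 bp (128280267 to 128282921) with 3 summits and had a fold of 10.4 in 2iL (8.58 to 12.5, 114 reads), at the 88.0 percentile of that list. It was called at neither later time. A weaker region 64.7 kb from Tead4, inside Foxm1, was called at 48 h alone with a fold of 4.48 (3.41 to 5.80).

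Gata3, a zinc finger factor gene that acts beside Cdx2, had no region in 2iL or at 96 h. It lies on chromosome 2 (9857078 to 9887953, minus strand). At 48 h a region 30.4 kb downstream (9826492 to 9826913) had a fold of 3.28 (2.40 to 4.40, 43 reads). A region 67.7 kb upstream, inside Taf3 (9955078 to 9956441), had a fold of 3.66 (2.67 to 4.90, 43 reads). Both were among the weaker regions of the 48 h list, at the 10.6 and 18.9 percentiles. A region within 100 kb at 48 h alone was found for 3.21% of protein-coding genes.

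Elf5, an ETS factor gene of trophoblast stem cells, had 1 region, at the edge of the window. It lay 99.5 kb upstream of the gene (chromosome 2, 103312327 to 103312981) and 9.36 kb from Ehf, a related ETS factor gene. Its fold was 5.62 in 2iL (3.92 to 7.83, 33 reads), and it was not called later. A region in 2iL alone was found for 8.54% of protein-coding genes. Just outside the window, 115.7 kb from Elf5, a region was called at 48 h (fold 3.28) and at 96 h (3.47) but not in 2iL.

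**Figure D4:**
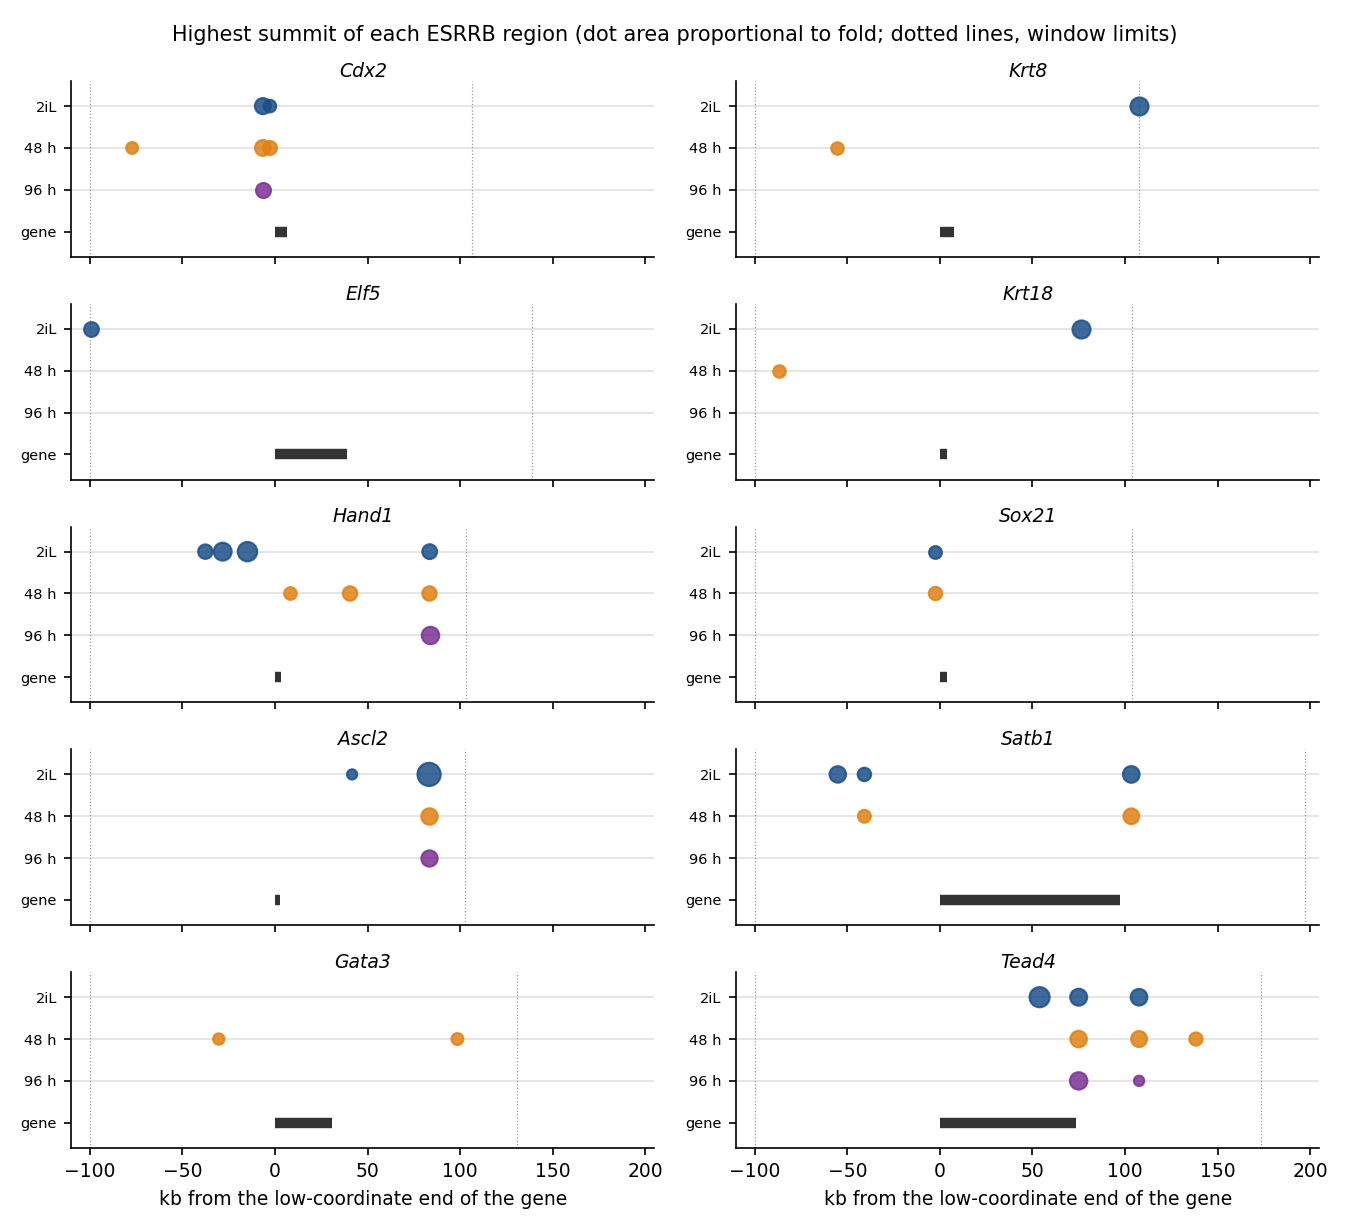
Highest summit of each ESRRB region around each gene, with distance in kb from the low-coordinate end of the gene on the x axis and 1 row per library above the gene bar. Dot area is proportional to fold and dotted lines mark 100 kb from the gene. The dots of Cdx2, Sox21, Satb1, Tead4 and Hand1 include summits within 7 kb of the gene, whereas the dots of Ascl2, Gata3, Elf5, Krt8 and Krt18 lie more than 30 kb away.

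Ascl2, an imprinted basic helix-loop-helix gene of the spongiotrophoblast, had the strongest member. The gene lies on chromosome 7 (142966822 to 142969264, minus strand), and the region is 80.8 kb upstream (143049365 to 143050432 in 2iL), inside the noncoding gene R74862 and 2.68 kb from Cd81. Its folds were 13.8 in 2iL (11.2 to 16.9, 95 reads), 6.98 at 48 h (5.73 to 8.43, 107 reads) and 6.82 at 96 h (5.15 to 8.86, 54 reads). The 2iL interval lies above those of both later libraries, which overlap each other, and the local background was 5.95 reads for 2iL, 14.5 for 48 h and 7.06 for 96 h. By fold within its own list the region was at the 95.5 percentile for 2iL, 75.8 for 48 h and 76.5 for 96 h. The 3 summits fell within 18 bp, against a median of 43 bp over the 4260 sites called in all 3 libraries. The other Ascl2 region, inside Tspan32 and 39.2 kb upstream, was the weakest member, with a fold of 2.68 in 2iL (1.87 to 3.73), and was not called later.

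By highest fold within 100 kb in the 3 libraries, the protein-coding genes most like Ascl2 were the neighbours Il17f and Mcm3, which share regions, and Alg8. The distance on the log2 fold scale over 3 libraries was 0.048 for Il17f and Mcm3 and 0.089 for Alg8.

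Hand1, a basic helix-loop-helix gene needed for trophoblast giant cells, had the most regions in 2iL, 4, of which 1 was called later. It lies on chromosome 11 (57828713 to 57832147). The 4 regions of 2iL compare with 22.3% of protein-coding genes that had 4 or more. The 3 on the low-coordinate side lay 14.9, 28.3 and 37.6 kb from Hand1 and nearer to Sap30l and Galnt10, with folds of 9.66 (7.66 to 12.0), 8.28 (6.47 to 10.4) and 5.36 (3.93 to 7.16). None of the 3 was called later. At 48 h 2 other regions were called on the opposite side. One was 4.93 kb from Hand1 (57836835 to 57837305) with a fold of 4.10 (3.10 to 5.33), and the other, printed above, was 37.1 kb away with a fold of 5.39 (4.32 to 6.64). Neither was called in 2iL or at 96 h.

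The Hand1 region shared by all 3 libraries was the most distant, 80.1 kb away in the noncoding gene Gm33078 (57911802 to 57913862 in 2iL). Its folds were 5.61 in 2iL (4.06 to 7.56, 41 reads), 5.35 at 48 h (4.30 to 6.59, 87 reads) and 7.79 at 96 h (6.07 to 9.87, 67 reads). The 3 intervals overlap. Its summits spread over 130 bp, the widest of the 5 trophoblast gene sites called in every library.

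Sox21, a SOX factor gene active in the early embryo, had 1 region 2.8 kb beyond its 3′ end (chromosome 14, 118229264 to 118230860 in 2iL). Its folds were 4.20 in 2iL (2.86 to 5.97, 29 reads) and 4.57 at 48 h (3.43 to 5.98, 51 reads), and it was not called at 96 h. The 2iL and 48 h intervals overlap.

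Satb1, which encodes a chromatin organiser found in trophoblast stem cells, was near 3 regions of 2iL and 2 of 48 h, with no region called at 96 h. It lies on chromosome 17 (51736187 to 51833290, minus strand), and no other protein-coding gene lay within 100 kb. The region 6.3 kb upstream (51838849 to 51840028 in 2iL) had folds of 7.13 in 2iL (5.60 to 8.95, 72 reads) and 6.38 at 48 h (5.21 to 7.73, 102 reads). The region 40.8 kb downstream had folds of 4.63 in 2iL (3.51 to 6.004) and 4.28 at 48 h (3.31 to 5.46), with summits 1 bp apart. Both pairs overlap within counting error. The region 55.2 kb downstream, with a fold of 6.96 (5.41 to 8.83), was called in 2iL alone.

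Krt8 and Krt18, keratin genes of trophectoderm and other simple epithelia, are neighbours on chromosome 15 and shared both of their regions. In 2iL the region lay inside Tns2 (102103757 to 102104898), 72.3 kb from Krt18 and 99.96 kb from Krt8, with a fold of 8.41 (6.52 to 10.7, 65 reads). At 48 h the region was on the other side, 784 bp from the keratin gene Krt79 (101940723 to 101941344), with a fold of 4.04 (2.87 to 5.52, 37 reads). Each was called in 1 library only. Just outside the window, 124.6 kb from Krt18, a region was called in all 3 libraries with a fold of 5.01 in 2iL, while the 48 h library had 3.87 and the 96 h library 2.77. Regions of 2iL just outside the window also lay 112.1 and 122.9 kb from Cdx2, 120.6 kb from Tead4 and 125.0 kb from Hand1. The Hand1 one was also called at 48 h (124.9 kb), whereas no later region was found just outside the windows of Cdx2 and Tead4.

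Near these genes the 2iL regions that were called again did not have the higher median fold. The 9 called at a later time had a median fold of 6.63 (4.12 to 13.8), and the 8 called at neither had 7.62 (2.68 to 10.4). Over all 2iL regions the medians were 6.71 and 5.19 in the same order. The 20% of 2iL regions with the highest fold held 3 trophoblast gene regions, at Ascl2, Tead4 and Hand1, and that of Ascl2 was called at 48 h and at 96 h. Of all regions in that 20%, 77.5% were called at 48 h and 62.2% at 96 h. The ranges of the 9 and the 8 regions overlap, and the difference was not tested.

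Trophoblast gene regions called at 48 h and not in 2iL had a lower median fold than those called in both, with overlapping ranges. Of the 16 regions of 48 h, 7 (43.8%, exact 95% interval 19.8 to 70.1) were not called in 2iL, against 36.5% of all 48 h regions. They lay near Gata3 (2), Hand1 (2), Cdx2, Tead4 and the keratin genes, and none was called at 96 h. Called in neither other library were 26.3% of all 48 h regions. As merged sites they were 7 of 24, against 15.5% of all 18634 sites. The 7 had a median fold of 4.04 (3.28 to 5.39), and the 9 that were also called in 2iL had 6.38 (4.28 to 7.03). Over all 48 h regions these medians were 4.25 and 5.69.

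Most members lay more than 10 kb from a trophoblast gene, as does most of the 100 kb window that defined them. Their distances were not set against those for all genes. In 2iL 6 of 17 regions had their highest summit within 10 kb, at 48 h 6 of 16 and at 96 h 2 of 5, and the median distance was 33.9 kb for 2iL, 35.5 kb for 48 h and 34.0 kb for 96 h. The nearest protein-coding gene was one of the 10 for 8 of 17 regions in 2iL, 9 of 16 at 48 h and 2 of 5 at 96 h. Those within 10 kb lay at Cdx2, Tead4, Sox21, Satb1 and, at 48 h, Hand1. More than 1 summit was called in 10 of 17 regions in 2iL (58.8%), 8 of 16 at 48 h (50%) and 2 of 5 at 96 h (40%), against 40.4%, 33.5% and 31.4% of all regions.

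Other factor genes of trophoblast stem cells had regions in every library. Of 12 such genes, in a list written with earlier results of these data known, an ESRRB region was near 11 in 2iL, 11 at 48 h and 12 at 96 h, against 69.8%, 64.7% and 54.0% of all protein-coding genes. The genes with the most 2iL regions, named for that count, had fewer later. Such a choice by itself favours a later fall, so the fall is not a result about these genes. Of all protein-coding genes with a 2iL region, whatever their count, 55.8% had fewer at 48 h and 74.4% at 96 h. Tfap2c, which encodes the AP-2 factor of naive cells and trophoblast, had 11 regions for 2iL, 8 for 48 h and 8 for 96 h, with highest folds of 22.0, 17.5 and 14.4. Sox15, a SOX factor gene of giant cells, had 7, 5 and 5, with highest folds of 13.6, 16.4 and 14.5. Arid3a, a DNA-binding factor gene of trophectoderm, had 6, 3 and 3, with highest folds of 5.73, 11.0 and 9.16. Of the other 9 genes, 4 had more regions at both later times than in 2iL and are named here after their values were seen. Fgfr2, a receptor gene for the growth factor FGF4 in trophoblast stem cells, had 1 region for 2iL, 3 for 48 h and 5 for 96 h. Dlx3 and Esx1, homeobox genes of the placenta, each had 1, 2 and 2, and Ets2, an ETS factor gene, had 0, 1 and 1. This list was near 44 regions of 2iL, and the 48 h list shared 25 of them (56.8%, against 50.7% of all 2iL regions) and the 96 h list 24 (54.5%, against 35.0%). Tfap2c held 11 of the 44 and Sox15 held 7, and these shares were not matched for 2iL fold.

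Genes of differentiated trophoblast were near 12 regions in 2iL. These lay at 7 of 12 genes, and regions of 48 h lay at 5 and those of 96 h at 4, against the same 69.8%, 64.7% and 54.0% of all genes. The 4 genes of 96 h were near only 3 regions, since the neighbours Cdkn1c and Phlda2 shared 1 with a fold of 2.79. Peg10 and Syna, placental genes of retroelement origin named for their 2iL counts, each had 3, 2 and 1 regions, with highest 2iL folds of 8.11 and 17.9. No region in any of the 3 libraries was near Prl2c2, Tpbpa, Krt7, Krt19 or Ctsq, which are expressed in the placenta. The 48 h list shared 8 of the 12 regions (66.7%, against 50.7% of all 2iL regions) and the 96 h list 4 (33.3%, against 35.0%).

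The Hippo and TEAD pathway acts on Cdx2 through TEAD4. Of its 12 listed genes 10 had a region in 2iL, 9 at 48 h and 7 at 96 h, against 69.8%, 64.7% and 54.0% of all genes. Tead1, a paralog of Tead4, had 7, 5 and 6 regions, Nf2, an activator of the pathway, 7, 4 and 3, and Tead3 5, 2 and 0. They too were named for their 2iL counts. No library had a region near Lats2, a kinase gene, or Amot, which encodes a junction protein. The 48 h list shared 21 of the 38 regions of 2iL (55.3%, against 50.7% of all) and the 96 h list 15 (39.5%, against 35.0%). The differences between lists were not tested.

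**Figure D5:**
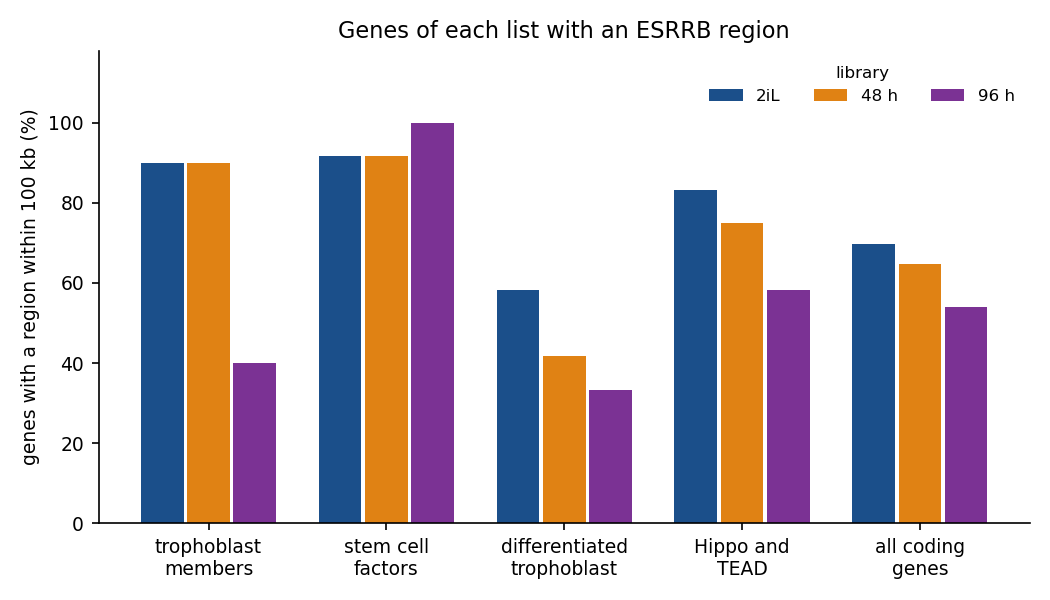
Percent of genes with an ESRRB region within 100 kb (bars from left to right are 2iL, 48 h and 96 h), for the 10 trophoblast members, 3 other lists of 12 genes and all 21887 protein-coding genes. At 96 h a region was near 4 of 10 members, 12 of 12 other stem cell factors, 4 of 12 differentiated trophoblast genes, 7 of 12 Hippo and TEAD genes and 54.0% of all genes. Neighbouring genes can share a region, as Cdkn1c and Phlda2 did at 96 h.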

How the data were processed

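ESRRB ChIP-seq of E14 cells was analysed from 3 deposited peak lists, 1 per antibody library and not pooled. The 3 input libraries were not used here. Per the submitters' processing notes, bcl2fastq 2.20.0.422, BWA, SAMtools, Picard and MACS2 were used with build mm10; no source used here states their roles, the thresholds or the use of inputs. The deposited values are a score capped at 1000, a fold enrichment (ratio of summit reads to local background, pseudocount of 1 on both), a p-value and a q-value given as −log10, and the summit offset in bp, per the peak list layout; the authors' score was not used.

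Each unique interval was a region with the values of its highest-fold summit. Distances ran from the summit to RefSeq gene spans (GRCm38.p6, 21887 protein-coding genes), with strand from RefSeq promoter windows (250 bases before to 50 after a start; Tead4 and Hand1 have no window, so ends are given by coordinate). Coordinates are 1-based. Regions overlapping by at least 1 bp counted as called in both libraries. Reads k and background b were solved from fold = (k + 1)/(b + 1) and the Poisson p, with a tolerance of 0.05 of a step, and this code and the overlap code were tested on simulated data and against bedtools 2.31.1. Intervals are exact (Poisson for reads, Clopper-Pearson for shares, 95%) and cover counting error only, since reads without molecular identifiers are not independent molecules. For the interval of a fold the background was taken as fixed. Python 3.11.15, NumPy 2.4.6, pandas 2.3.3 and SciPy 1.17.1 were used. With 1 library per group no p-value was computed.

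No genome was used, so the motif search in regions gave way to one in promoter windows. The members and lists were chosen with earlier results of these data known. All 10 members were named with every region; of other lists, the genes with the most 2iL regions (up to 3, ties beyond 3 left out) and those with none; and for the member with the highest 2iL fold the 3 genes over 200 kb from any member with the nearest log2 folds. Alternatives were windows of 50 and 20 kb, lists of equal length, only summits with a q up to 1e-05, nearest gene only, highest summit only, 50% overlap of both regions, summits within 200 bp, leaving out Hand1, and, added after seeing the data, the shorter word AGGTCA.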

Additional observations from a re-analysis of the deposited data

How the results depend on the processing

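Counts of regions depended on the window, and shares did not leave their exact intervals under any alternative run. Those intervals are wide (27.8 to 77.0 at 48 h, 10.3 to 56.0 at 96 h). Of 74 alternative values 17 moved, by more than 1.5 times for a count, and 57 did not. A median moved only if it left a rank-based interval of the main regions, at 96 h their whole range (2.78 to 7.80). With limits this wide, the 57 do not measure how stable the shares and medians are. The median fold stayed between 6.80 and 7.83 in 2iL, 4.77 and 5.88 at 48 h and 5.78 and 6.82 at 96 h. Within 50 kb there were 10 regions at 48 h and 3 at 96 h, and these 3 lay at 2 genes. Within 20 kb there were 7 regions at 5 genes in 2iL, 6 at 5 genes at 48 h and 2 at 2 genes at 96 h. Counting a region only for its nearest coding gene left 8 at 4 genes in 2iL, 9 at 48 h and 2 at 2 genes at 96 h. Lists shortened to 7018 regions left 10 at 7 genes in 2iL and 10 at 6 genes at 48 h, with 4 genes at 96 h. Shares of all protein-coding genes with a region were computed for 100 kb and the full lists only. The gene counts under these alternatives thus have no such share beside them. The share of 2iL regions called at 48 h ranged from 50% to 75% and that at 96 h from 23.5% to 40%. AGGTCA in place of AAGGTCA was in 3 of 13 promoter windows of members. No paired analysis was possible because each group has 1 library. With 1 library per time, depth and time cannot be told apart.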
